A study of Drosophila melanogaster with 3 samples.

Results

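The cytoplasmic ribosomal protein genes were examined for promoter peaks of the Drosophila melanogaster zinc finger protein CG2678. They were taken as the protein-coding genes whose Ensembl symbol begins with RpL (large ribosomal subunit) or RpS (small subunit). This gave 92 of 13945 protein-coding genes on the 6 chromosome arms, 54 of the large subunit and 38 of the small subunit. The rule goes by name, so it also takes in genes such as RpL24-like, RpL7-like and RpLP0-like, whose yeast relatives act in ribosome assembly.

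The measurements were chromatin immunoprecipitation sequencing (ChIP-seq) of CG2678, also named kipferl, in 1 group of samples with 3 biological replicates. All samples were whole embryos of mixed sex aged 0 to 24 h, from a transgenic Drosophila line that stably expresses CG2678 with GFP fused to its C terminus. Sonicated chromatin (200 to 800 bp) was precipitated through the GFP. The labels do not give the promoter of the transgene or the state of the endogenous gene, and no untreated or second group was compared. In whole embryos, a site bound in few cells and a site bound weakly in many cells cannot be told apart.

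Each replicate had a list of 30000 peaks, as did the 3 replicates pooled, and 9459 pooled peaks passed the authors' threshold on the irreproducible discovery rate (IDR), a measure of how well peak ranks repeat across replicates. A gene was counted as having a promoter summit when the highest point of a peak lay within 500 bp of any of its transcription start sites (TSS), and the strongest such summit was used. Strength is the authors' signal value, which has no fixed unit and was compared only within a list, as a rank from 1 (strongest). Read counts are not in the lists, so the depth behind each value is unknown, and errors are given as the SD over the 3 replicates.

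Ribosomal protein genes encode the proteins that, with ribosomal RNA, make up the cytoplasmic ribosome, and their products are needed in matched amounts in every growing cell. In Drosophila many of them start transcription at a polypyrimidine initiator, a pyrimidine-rich start site also called TCT, which is served by the TBP-related factor Trf2 rather than by the TATA-binding protein. The factors Dref, which recognises TATCGATA, and M1BP, which recognises GGTCACAC, are also known from their promoters. In the ovary, CG2678 is known as a partner of the heterochromatin protein Rhino at piRNA source loci.

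The promoters of 8 genes show the 3 situations met below. The windows run from up to 180 bp before the TSS nearest to the summit (for genes without a summit, the canonical TSS) to 20 bp from the TSS onward, 5′ to 3′ on the gene's strand. They were shortened at the 5′ end where an annotated untranslated exon of a neighbour was reached. Capitals mark runs of at least 8 bases that are all A or T, the Dref word TATCGATA, and the initiator words CTTTT or CTTTC within 10 bp of the TSS. The sequence is the RefSeq copy of the assembly that dm6 names. The first 4 genes are the strongest, on the arms from which sequence is shown, with the summit upstream of the TSS: RpL34b (chr3R:9401207-9401406, minus strand), RpS27 (chr3R:25247495-25247657, minus strand), RpL32 (chr3R:30046142-30046341, minus strand) and RpS20 (chr3R:20822001-20822200, plus strand).
RpL34b: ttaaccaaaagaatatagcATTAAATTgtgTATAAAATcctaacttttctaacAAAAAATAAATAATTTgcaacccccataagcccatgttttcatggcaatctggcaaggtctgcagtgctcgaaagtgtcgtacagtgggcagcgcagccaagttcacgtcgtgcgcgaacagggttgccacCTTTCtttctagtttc
RpS27: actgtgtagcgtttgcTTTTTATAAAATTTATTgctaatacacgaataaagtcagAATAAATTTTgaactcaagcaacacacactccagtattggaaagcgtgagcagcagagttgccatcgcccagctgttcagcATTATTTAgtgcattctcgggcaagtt
RpL32: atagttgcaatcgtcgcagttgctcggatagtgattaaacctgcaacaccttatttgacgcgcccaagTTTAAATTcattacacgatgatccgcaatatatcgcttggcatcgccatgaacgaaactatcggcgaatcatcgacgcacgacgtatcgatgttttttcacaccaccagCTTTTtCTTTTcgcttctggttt
RpS20: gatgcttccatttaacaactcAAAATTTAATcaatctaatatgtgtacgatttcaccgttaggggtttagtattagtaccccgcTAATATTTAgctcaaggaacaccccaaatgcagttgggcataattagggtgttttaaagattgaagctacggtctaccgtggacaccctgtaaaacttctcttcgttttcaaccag

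The next pair, chosen after the values were seen, are the strongest such members with the summit within 10 bp of the TSS and at least 100 bp of window, RpL24 (chr2L:13395112-13395311, minus strand) and RpL27 (chr3R:25685032-25685231, minus strand).
RpL24: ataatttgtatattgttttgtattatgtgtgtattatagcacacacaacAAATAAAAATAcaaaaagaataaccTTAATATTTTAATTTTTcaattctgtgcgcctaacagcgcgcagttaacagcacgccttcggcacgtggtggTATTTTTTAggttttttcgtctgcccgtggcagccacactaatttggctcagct
RpL27: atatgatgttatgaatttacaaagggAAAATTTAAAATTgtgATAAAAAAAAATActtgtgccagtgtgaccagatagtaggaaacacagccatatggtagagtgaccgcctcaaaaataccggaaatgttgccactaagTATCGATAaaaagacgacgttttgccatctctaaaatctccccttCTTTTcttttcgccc

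The last pair had no promoter summit in any list, RpL10Aa (chr3R:15037186-15037385, plus strand) and RpL24-like (chr3R:11431563-11431737, minus strand).
RpL10Aa: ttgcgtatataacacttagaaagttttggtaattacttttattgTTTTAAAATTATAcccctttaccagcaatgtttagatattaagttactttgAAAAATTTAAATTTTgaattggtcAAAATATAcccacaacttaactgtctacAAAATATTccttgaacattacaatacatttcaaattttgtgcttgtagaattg
RpL24-like: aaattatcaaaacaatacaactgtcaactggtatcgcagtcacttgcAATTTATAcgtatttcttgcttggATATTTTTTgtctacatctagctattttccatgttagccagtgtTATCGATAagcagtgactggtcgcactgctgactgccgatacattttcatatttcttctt

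The IDR summit of RpL34b lay inside an A/T run, and those of RpS27 and RpS20 lay 6 bp from one. The summits of RpL32, RpL24 and RpL27 lay 34, 32 and 125 bp from the nearest run in the printed window. RpL34b, RpL32 and RpL27 carry an initiator word, and the other 5 do not within the limit used. A/T runs also stand in the promoters without a summit: RpL10Aa has 4 of them, 44 of its 200 bases, against 3 runs and 32 bases in RpL34b.

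An IDR promoter summit was present at 66 of the 92 ribosomal protein genes (71.7%), against 22.5% of all protein-coding genes. The share was 74.1% for the large subunit (40 of 54) and 68.4% for the small subunit (26 of 38). It was 35.6% (26 of 73) for the genes named mRp, which encode proteins of the mitochondrial ribosome. The pooled list before thresholding held a summit for 69 members (75%), against 34.1% of all genes.

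The replicates gave the same order. In the full lists, a promoter summit was present at 84 members in replicate 1 (43.9% of all genes), at 73 in replicate 2 (37.0% of all genes) and at 69 in replicate 3 (33.5% of all genes). Among the 9459 strongest peaks of each list, as many as in the IDR list, the counts were 77 members in replicate 1 (29.5% of all genes), 69 in replicate 2 (23.2% of all genes) and 67 in replicate 3 (21.7% of all genes). These are 83.7%, 75% and 72.8% of the members, or 77.2% ± 5.75 (SD, n = 3), against 24.4% ± 4.12 (SD, n = 3) of the other protein-coding genes. The difference within a replicate was 52.7 ± 1.63 percentage points (SD, n = 3), and the lowest share of members exceeded the highest share of other genes, as the plot of shares by replicate shows. A summit stood in all 3 full lists for 64 members (69.6%) and 25.5% of the other genes, and in at least 1 replicate list for 85 members (92.4%) and 50.5% of the others.

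**Figure D1:**
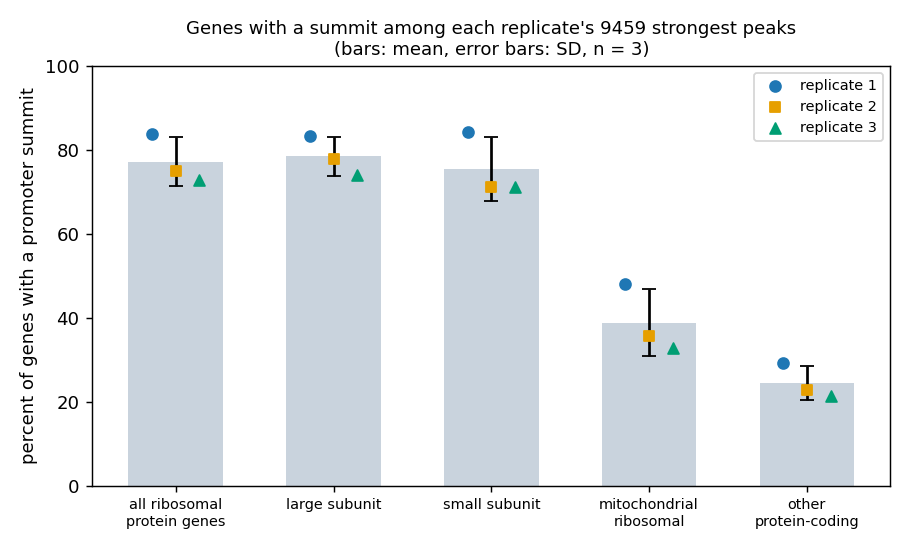
Percent of genes with a promoter summit among the 9459 strongest peaks of each replicate (points), with the mean (bars) and SD (error bars) over 3 replicates, for all ribosomal protein genes, both subunits, the mitochondrial ribosomal protein genes and the other protein-coding genes. The ribosomal protein genes average 77.2% and the other protein-coding genes 24.4%, and replicate 1 is the highest in each set.

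The strongest member was RpL34b, one of a pair of genes for the same large subunit protein. Its IDR peak (chr3R:9401093-9401624, dm6) had a signal of 3176 and rank 438 of 9459, and its promoter summit ranked 288, 546 and 456 in replicates 1, 2 and 3. The nearest TSS to that summit, 145 bp upstream of RpL34b, was the TSS of the neighbour CG8132. Its paralog RpL34a had rank 1392 (signal 1514) and ranked 1190, 1637 and 1178.

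RpS27, a small subunit gene with its peak at chr3R:25247238-25247915, had IDR rank 757 (signal 2275) and ranked 642, 1183 and 482 in the replicates. RpL32, widely used as a reference gene in fly expression studies, had its peak at chr3R:30045880-30046942, with rank 769 (signal 2260) and ranked 579, 1142 and 604. RpS27 and RpL32 did not separate, since their rank ranges over the replicates overlap. Each was weakest by rank in replicate 2.

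RpL7 followed with IDR rank 948 (signal 1971) and replicate ranks of 766, 1555 and 624, and RpS20 with rank 1044 (signal 1855) and ranks of 786, 1322 and 958. RpL14, RpL13 and RpS25 had IDR ranks of 1115, 1362 and 1381. The RpL13 summit is shared: RpL13 and Dref are divergent neighbours, the summit lay 51 bp upstream of RpL13 and 33 bp upstream of Dref, and it ranked 1350, 1390 and 1316 in the replicates. These strongest members include genes of both subunits, and no member stood among the 200 strongest IDR peaks, where 172 of the 3075 other genes with an IDR promoter summit had theirs.

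**Figure D2:**
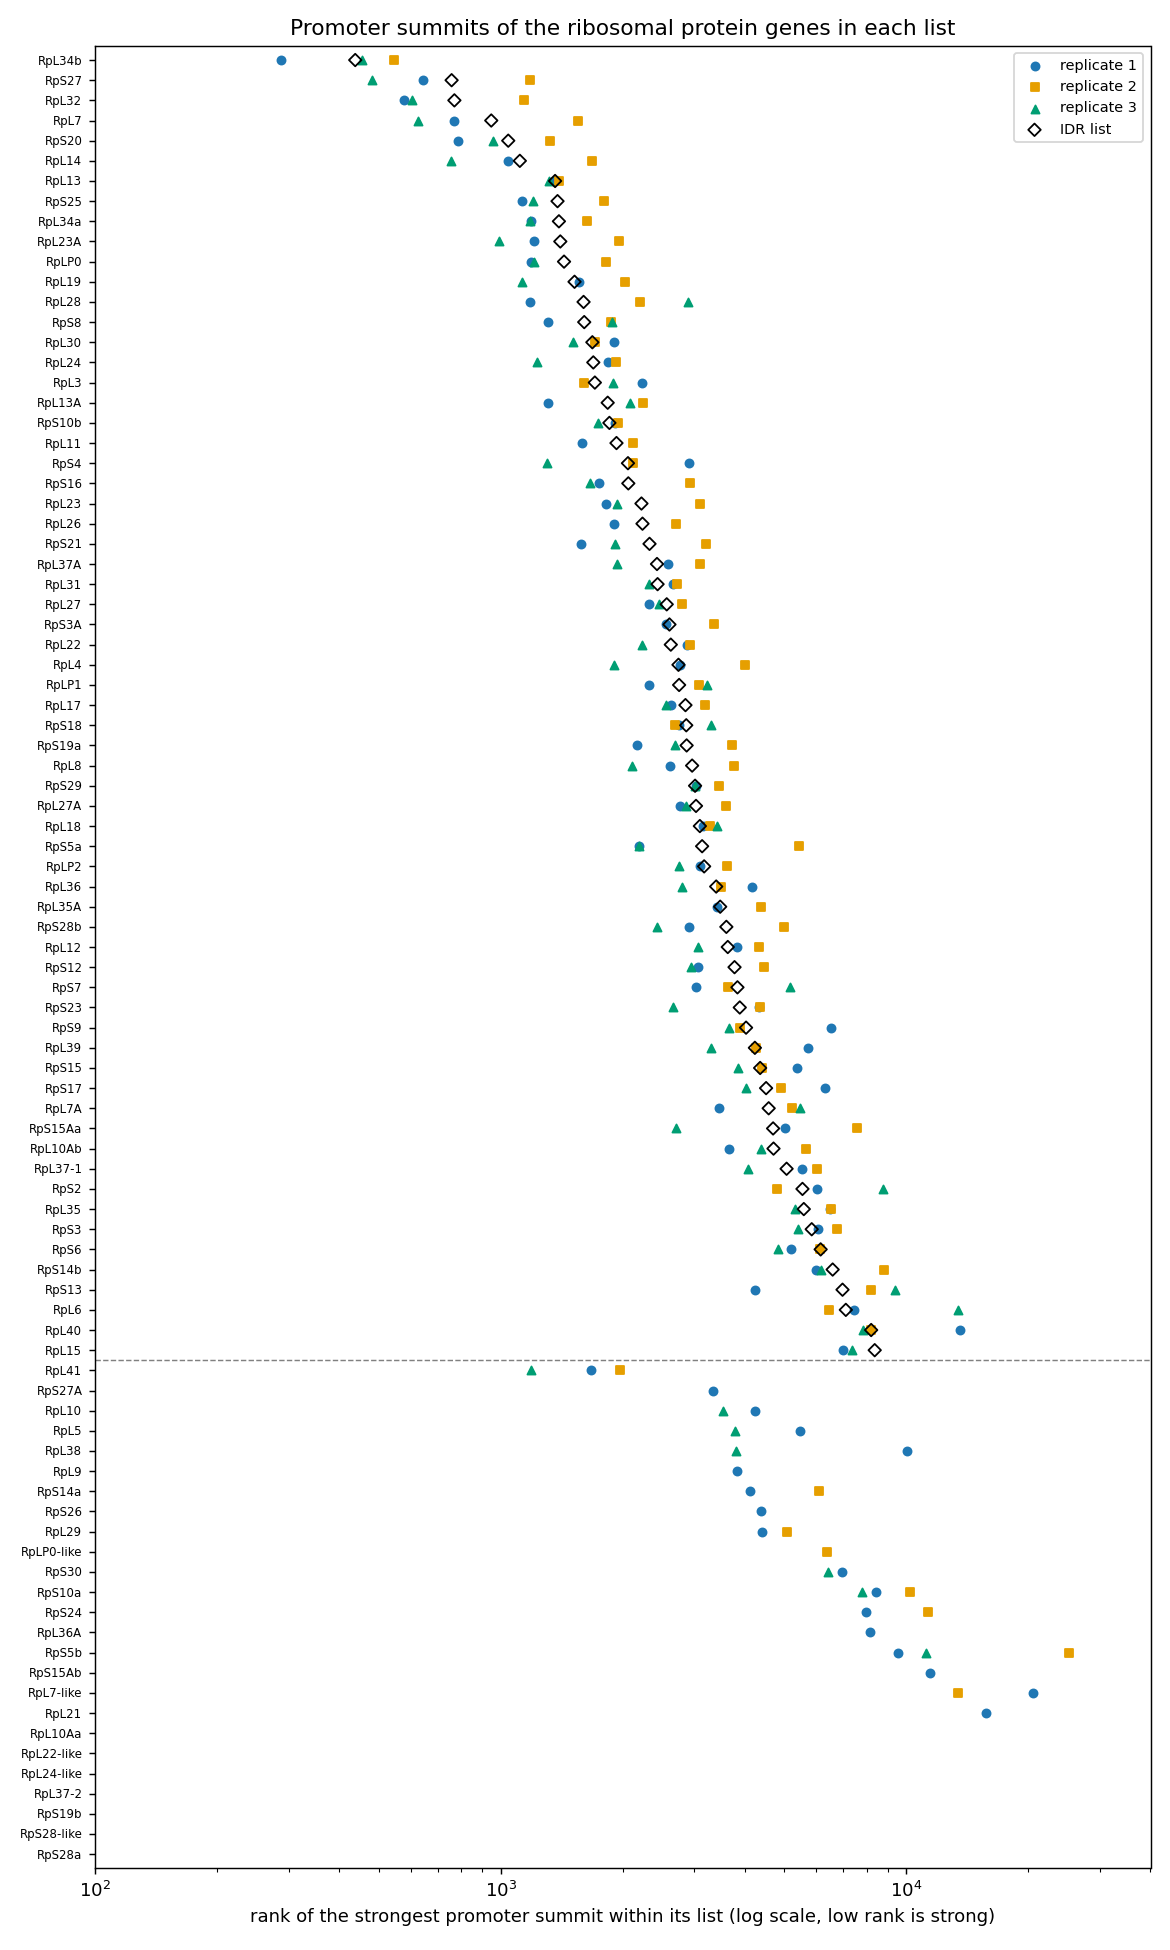
Rank of the strongest promoter summit of the ribosomal protein genes reported by name within each replicate list (filled points) and the IDR list (open diamonds), on a log axis where a low rank is a strong peak. Genes above the dashed line have an IDR summit, from RpL34b at rank 438 to RpL15 at rank 8359; RpL41, just under the line, has replicate ranks of 1668, 1974 and 1187, and the last 7 genes have no summit in any list.

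Promoter summits were frequent at these genes and, with all distances from the TSS included, were not unusually strong. The median IDR signal was 860 over the 66 members and 814 over the 3075 other genes, and the median rank was 2804.5 against 2969 of 9459. Split by distance, the member medians were higher within 50 bp of the TSS and more than 50 bp upstream. Within 50 bp of the TSS the median IDR signal was 846 for 41 members and 402 for 341 other genes. More than 50 bp upstream it was 1116 for 19 members and 960 for 2404 other genes. These upstream summits did not lie at like distances: the median position was -115 bp for members and -194 bp for other genes. In the strongest peaks of the replicates the median rank percentile (0 is strongest) was 31.1 ± 3.38 for members and 33.5 ± 3.53 for other genes (SD, n = 3). Within a replicate, members minus other genes came to -2.38 ± 1.69 (SD, n = 3), so the member summits were slightly the stronger in each replicate. The members lay closer to the middle of the range: 56 of 66 (84.8%) had an IDR rank of at most 4729, the middle of the list, against 66.8% of the other genes, while 1 of 66 was among the 500 strongest, against 398 others (12.9%).

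The weakest IDR summits were those of RpL15 (rank 8359, signal 276), RpL40 (rank 8192, signal 282), which encodes a fusion of ubiquitin with a large subunit protein, and RpL6 (rank 7095, signal 336). RpL15 ranked 6969 in replicate 1 and 7338 in replicate 3 and had no promoter summit in replicate 2. RpL40 ranked 13539, 8179 and 7818, and RpL6 ranked 7423, 6460 and 13396. Among the members with a summit in all 3 full lists, RpL40 and RpL6 had, with RpS5b, the largest rank ranges, so their order among the weak summits is not resolved. Over the 64 members with a summit in all 3 full lists, Spearman's rho between replicate ranks was 0.894 (replicates 1 and 2), 0.900 (1 and 3) and 0.881 (2 and 3), a description across genes whose peaks share a library within each list.

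Summits at ribosomal protein genes mostly sat close to the start site, while those at other genes mostly sat farther upstream of it. The median distance from summit to TSS, regardless of direction, was 36 bp over the 66 members and 171 bp over the 3075 other genes. The summit lay within 50 bp of the TSS at 41 members (62.1%) and 341 other genes (11.1%), and within 100 bp at 81.8% and 23.1%. It lay farther than 200 bp from the TSS at 2 members, RpL10Ab (399 bp upstream) and RpL23 (341 bp upstream), and at 41.6% of the other genes. At both of these members the nearest TSS to the summit was that of another gene.

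The offset repeated in the replicates. Among the strongest peaks of each, the median absolute distance was 41.0 ± 6.08 bp for members and 166 ± 11.7 bp for other genes (SD, n = 3), and 57.0% ± 4.58 of member summits against 11.3% ± 1.72 of other summits lay within 50 bp. For a single member, the summit moved by a median of 51.5 bp over the 3 replicates (52 bp for other genes), so the distances of single genes are known to about that range.

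**Figure D3:**
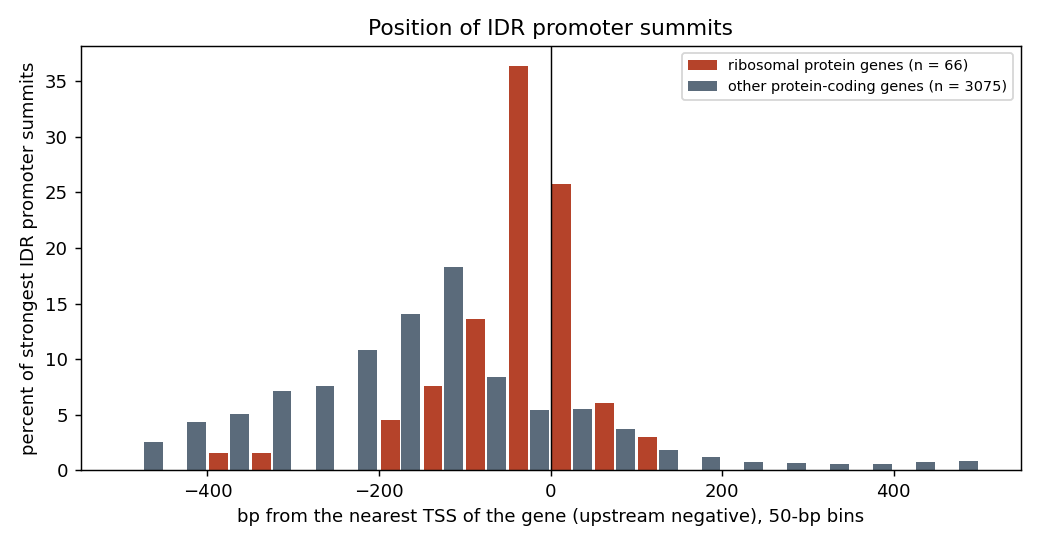
Percent of strongest IDR promoter summits in each 50-bp bin of distance from the nearest TSS of the gene (upstream negative) for 66 ribosomal protein genes and 3075 other protein-coding genes. The bins on either side of the TSS hold 36.4% and 25.8% of the ribosomal protein summits and 5.46% and 5.5% of the others.

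Most member summits were still upstream, 29 of 40 at large subunit genes (72.5%) but only 14 of 26 at small subunit genes (53.8%). Among the strongest peaks of the replicates these shares were 75.8% ± 5.95 and 61.0% ± 12.0 (SD, n = 3). The median signed distance, negative upstream, was -15.5 bp for members and -156 bp for other genes, and 43 of 66 member summits (65.2%) lay upstream of the TSS against 83.6% of the others. In the replicates the upstream share was 69.9% ± 5.58 for members and 84.4% ± 1.86 for other genes (SD, n = 3). The side varied with strength: of the 33 stronger members 28 had the summit upstream, with a median of -36 bp, and of the 33 weaker members 15 did, with a median of 2 bp. Strength also went with position at other genes, so this is not particular to members. Their median IDR signal was 402 within 50 bp of the TSS and 960 more than 50 bp upstream, against 846 and 1116 for members. By annotation, 35 member summits lay outside the gene (53.0%, against 67.6% for other genes) and 24 in a 5′ UTR (36.4%, against 14.3%). A further 7 lay in an intron (10.6%, against 17.8%) and 0 in coding sequence (against 0.293%).

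Start sites of other genes touch these distances. Another gene's TSS, noncoding genes included, lay within 500 bp of the summit for 36 of the 66 members. Such a TSS can be that of a small nucleolar RNA gene, as the only one at RpL15 and the nearest at RpS6. For 5 members (RpL10Ab, RpL13, RpL23, RpL34b and RpS6) another gene's TSS was nearer than the member's own. The gene's own TSS was thus the nearest at 92.4% of members with an IDR summit, against 76.3% of the other genes with one. For the 30 members with no other TSS within 500 bp, the median absolute distance was 27 bp, against 196 bp for the 1561 other genes in the same situation.

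Base composition under the summit differed in the same way. Within 50 bp of the summit the mean GC content was 42.3% for members and 31.8% for other genes. In windows of the same length 300 bp to either side it was 41.0% and 44.3%, so the summit minus its flanks came to 1.26 percentage points at members and to -12.6 points at other genes. The summit was poorer in GC than its flanks at 26 of 66 members (39.4%) and 80.7% of other genes. In the replicates the difference was 1.45 ± 0.469 points for members and -12.1 ± 0.0495 points for other genes (SD, n = 3). The sign for members depends on where the flank is taken: with flanks 500 bp away it was -2.86 points, against -13.96 points for other genes.

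**Figure D4:**
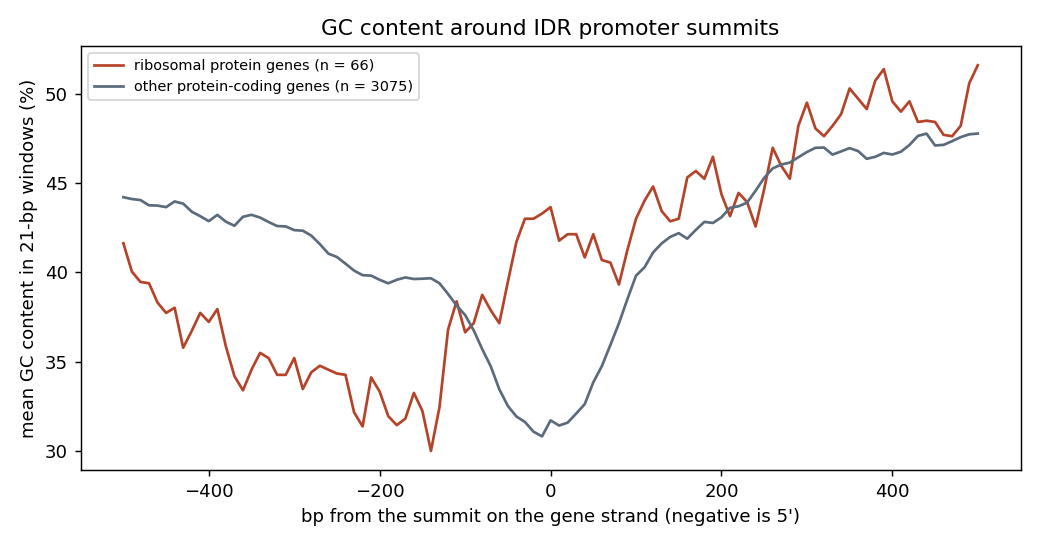
Mean GC content in 21-bp windows against distance from the IDR promoter summit on the gene strand, for 66 ribosomal protein genes and 3075 other protein-coding genes. The other genes have a trough at the summit (31.7%), while the ribosomal protein genes stand at 43.7% there and have their lowest value, 30.01%, 140 bp on the 5′ side.

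In the mean profile over the 66 members, the AT-rich stretch lay on the 5′ side of the summit and not under it. Single members differed: GC was lower at the summit than in the flanks at 26 of the 66. This was so at 13 of the 19 members with the summit more than 50 bp upstream. Composition followed position. The 41 member summits within 50 bp of the TSS had a mean GC content of 46.1% (flanks 40.5%), and the 341 other genes with a summit that close had 41.8% (flanks 43.0%). The 19 member summits more than 50 bp upstream had 36.3% (flanks 42.3%), and the 2404 such summits of other genes had 29.7% (flanks 44.8%). Over members, summit GC ran from 16.8% at RpLP2, a stalk protein gene whose summit lay 156 bp upstream, to 57.4% at RpL7 and RpL22.

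**Figure D5:**
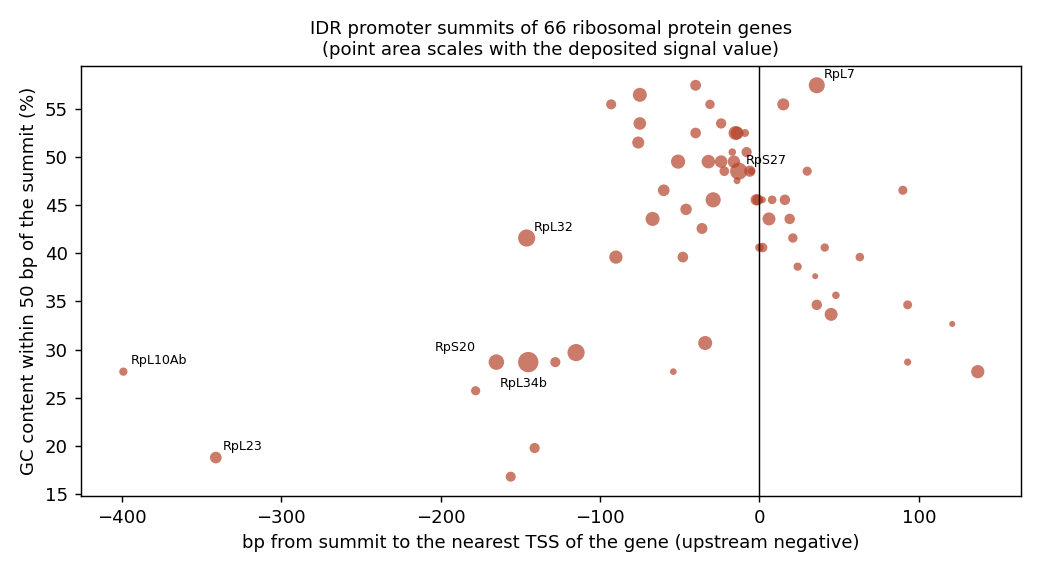
GC content within 50 bp of the IDR summit against distance of the summit from the nearest TSS of the gene (upstream negative) for 66 ribosomal protein genes, with point area scaled to the deposited signal value. Summits near the TSS lie mostly above 40% GC, and those more than 100 bp upstream, such as RpL34b (28.7%) and RpS20 (28.7%), mostly lie lower; RpL32 (41.6%) is the highest of that group.

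Among other genes, summit GC and signal were inversely related (Spearman's rho -0.433 over 3075 genes), and among members rho was 0.173 over 66 genes. Both are descriptions across genes in 1 pooled list. Among the strongest members, RpL34b had an AT-rich summit (28.7% GC), and RpL32 and RpS27 had 41.6% and 48.5% GC.

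The initiator and the Dref word were more frequent in member promoters than in all promoters, and the Dref word was about as frequent in members with an IDR summit as in those without. Words were searched on both strands from 250 bp before to 50 bp after the canonical TSS, except the initiator, which was searched on the gene strand only. CTTTT or CTTTC within 10 bp of the TSS was present at 49 of 92 members (53.3%) and 5.48% of all protein-coding genes. An IDR summit was present at 37 of the 49 members with it (75.5%) and at 29 of the 43 without it (67.4%). In the strongest peaks of the replicates these shares were 81.6% ± 6.12 and 72.1% ± 6.15 (SD, n = 3). The members with the initiator were higher in each replicate, by 9.54 ± 4.29 percentage points within a replicate (SD, n = 3). The summit was within 50 bp of the TSS at 56.8% of members with the initiator and an IDR summit and 68.97% of those with a summit and no initiator.

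Other genes with the initiator were closer to the rest of the genome than to the members. An IDR summit was present at 187 of 715 of them (26.2%), with a median absolute distance of 181 bp and a summit GC of 32.1%. The figures for other genes without the word were 21.98%, 171 bp and 31.8%. In the strongest peaks of the replicates the share was higher with the initiator by 3.52 ± 0.917 percentage points within a replicate (SD, n = 3).

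TATCGATA was present in 28 member promoters (30.4%), against 8.94% of all promoters, and in 30.3% of promoters of members with an IDR summit and 30.8% of those without. GGTCACAC was present in 13 (14.1%, against 7.54%), 12 of them among the 66 members with an IDR summit and 1 among the 26 without. CACGTG, the E box, was present in 11 (12.0%, against 4.26%), and GAGAG, the GAGA factor word, in 16 (17.4%, against 30.2%). TATAAA was about as frequent in member promoters (45.7%) as in all (45.3%). AAAAAA was present in 62.0% against 50.3%, and in 46 of the 66 members with an IDR summit (69.7%) and 11 of the 26 without (42.3%).

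Under the summits themselves, within 50 bp, TATCGATA was present at 8 of 66 members (12.1%), against 2.10% of all 3141 genes with an IDR promoter summit. GGTCACAC was present at 7 (10.6%, against 1.11%) and CACGTG at 4 (6.06%, against 0.637%). TATAAA was present at 7 (10.6%, against 26.6%) and GAGAG at 2 (3.03%, against 8.47%), while AAAAAA was present at 30.3% and 29.0%. TATCGATA and TATAAA can share bases, and a match is a match of letters only.

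Paralogs differed in whether they had a summit. The list of paralogs holds 27 members in 13 families. In 12 families exactly 1 gene had an IDR summit, and in the family of RpL34a and RpL34b both did. That is 14 of the 27 genes, against 52 of the 65 members in no pair (80%) and 22.5% of all protein-coding genes. All 7 members with no promoter summit in any list belong to this list: RpL10Aa, RpL22-like, RpL24-like, RpL37-2, RpS19b, RpS28-like and RpS28a.

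Among the large subunit families, RpL22 had rank 2627 and ranked 2885, 2933 and 2237 in the replicates, while RpL22-like, known for its expression in testis, was in no list. RpL10Ab (rank 4706), RpL24 (rank 1692) and RpL37-1 (rank 5069) each stood beside a paralog in no list. RpL7 (rank 948) stood beside RpL7-like, which ranked 20545 in replicate 1 and 13388 in replicate 2. RpLP0, the stalk base protein gene, had rank 1433, and RpLP0-like was present in replicate 2 alone (rank 6384).

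Among the small subunit families, RpS5a had rank 3138 and replicate ranks of 2199, 5438 and 2189. RpS5b, known from the female germline, had a summit in every replicate, ranked 9561, 25218 and 11206, and pooled rank 13121, below the IDR threshold. RpS10b had rank 1854, and RpS10a ranked 8398, 10195 and 7774 in the replicates and 20213 in the pooled list. RpS19a (rank 2874), RpS15Aa (rank 4695) and RpS28b (rank 3601) had an IDR summit, RpS15Ab was present in replicate 1 alone (rank 11432), and RpS19b, RpS28a and RpS28-like were in no list. RpS14a and RpS14b are near-identical tandem copies, so reads may be shared between them and their values are uncertain: RpS14b had rank 6584, and RpS14a had summits in replicates 1 and 2 (ranks 4127 and 6099) but none in the pooled list.

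The other 13 members without an IDR summit included RpL5, RpL9, RpL10, RpL21, RpL29, RpL36A, RpL38, RpL41, RpS24, RpS26, RpS27A and RpS30. Each of the 13 had a summit in at least 1 replicate list. RpL9 (rank 3832), RpS26 (4394), RpS27A (3345), which encodes a ubiquitin fusion, RpL36A (8119) and RpL21 (15738) were present in replicate 1 alone. RpL29 ranked 4413 and 5095 in replicates 1 and 2, and RpS30 ranked 6923 and 6409 in replicates 1 and 3. RpS24 ranked 7938 and 11317 in replicates 1 and 2 and 27587 in the pooled list.

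RpL41 (gene at chr2R:24903416-24903935, minus strand) differed from the rest of these. Its promoter summit ranked 1668, 1974 and 1187 in replicates 1, 2 and 3, at 76, 51 and 69 bp upstream of the TSS, yet the pooled list held no summit nearer than 1009 bp to its TSS. It was the 1 member of 60 with a summit among the strongest peaks of all 3 replicates and none in the pooled list, and 20 of 2276 other genes were in the same state. The same kind of gap, in a single list, was seen at 5 members with an IDR summit, RpL15 among them. Of these, RpL11, RpL26, RpL35A and RpS3A had IDR ranks of 1930, 2237, 3477 and 2607 and no promoter summit in replicate 3. Absence from 1 list is therefore not a measured low value.

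Position in the genome went with some of the gaps. By approximate borders, 5 members lay in pericentromeric sequence (RpL5, RpL10, RpL15, RpL21 and RpL38). RpL15 alone had an IDR summit among them, and RpL5 (ranks 5465 and 3778), RpL10 (4243 and 3531) and RpL38 (10033 and 3809) had summits in replicates 1 and 3 and none in replicate 2. Outside these regions 65 of 87 members had an IDR summit (74.7%), against 22.5% of the 13613 other genes there. Inside them the shares were 20% of the 5 members and 5.83% of 240 other genes. How far repeats limit mapping there was not tested.

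By arm, IDR summits were present at 13 of 14 members on 3L, 13 of 14 on X, 16 of 23 on 3R, 11 of 19 on 2L and 12 of 21 on 2R. These are 92.9%, 92.9%, 69.6%, 57.9% and 57.1% of the members, against 24.4%, 23.4%, 21.7%, 21.4% and 20.98% of the other genes on the same arms. RpS3A, the 1 member on chromosome 4, had its summit 36 bp upstream of the TSS, where 2 of the 79 other genes on that chromosome had one. Members that carry a small nucleolar RNA gene within their span, as many ribosomal protein genes do in an intron, had an IDR summit in 25 of 28 cases. Of the 64 members without such a gene 41 had one, against 22.5% of all protein-coding genes. Other genes that carry small nucleolar RNA genes are not counted here. All 13 genes of the paralog list without an IDR summit are among those 64.

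Ribosome genes outside the naming rule and factors of ribosome production were described as 1 list of 31 genes. An IDR promoter summit was present at 12 of them (38.7%), against 22.5% of all genes. Both ribosomal proteins with other names, sta and Rack1, had one, at rank 3285 (45 bp downstream of the TSS) and rank 2462 (34 bp downstream), close to the start site as in most members. Of 26 genes of ribosome biogenesis and growth, 8 did (30.8%). The strongest were eIF6, which keeps the large subunit from joining early, with rank 75 (99 bp upstream; 52, 134 and 43 in the replicates), and Ns2, a nucleolar GTPase gene, with rank 160 (167 bp upstream; 145, 169 and 149). Both stood above every ribosomal protein gene. Genes of the first steps of ribosomal RNA synthesis, Polr1A, Polr1B and Tif-IA, had no summit in any replicate list. This was not particular to them: other biogenesis genes of this list had none either. Of the other protein-coding genes, 50.5% had a summit in at least 1 replicate list. Myc had none in the IDR list. Of the 3 factors known from ribosomal protein promoters, M1BP had rank 307 (212 bp upstream) and Dref rank 1362, and Trf2 had no IDR summit.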

How the data were processed

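The 5 peak lists used are narrowPeak tables on dm6, per the labels and the deposited file descriptions: 3 replicate lists and a pooled list of 30000 peaks each, and 9459 IDR peaks, all of which are in the pooled list. Aligner and peak caller: not given in the sources used here. Control reads were not analysed here, and open chromatin was therefore not told apart from binding. The signal value is the authors' deposited score per peak and was used to rank peaks. Ranking did not use the deposited −log10 q-value. Summits were placed by the deposited offset. Coordinates are 1-based.

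Gene models were Ensembl release 115 (BDGP 6.54), and sequence came from the RefSeq copy of the assembly. Promoter summits, distances, GC content and words were computed with Python 3.11.15, numpy 2.4.6 and scipy 1.17.1, and figures with matplotlib 3.10.9. The assignment was tested on summits planted at 200 genes that have a single TSS. In all 200 the strongest planted summit within 500 bp was returned at the right distance. Genes with several TSS were not covered by this test. Pericentromeric borders were approximate: 22 Mb on 2L and on X, 23 Mb on 3L, 5.5 Mb on 2R and 4.5 Mb on 3R. No chance test was made: members were described by counts, medians and the SD over 3 replicates, beside all protein-coding genes. Nothing shows whether the biological replicates came from separate embryo collections, and the SD measures only the spread between these samples.

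The members and lists were chosen with earlier results of these data known. Genes were named by rule: the 10 strongest, the 3 weakest, the 3 of largest rank range, all without an IDR summit, and the listed paralogs. Some genes that the rule takes are not reported here by name and enter only counts and summaries. RpL37a and RpL37b carry the current symbols RpL37-1 and RpL37-2, and BOP1 was matched as CG5033. Genes named outside that rule (RpL10Ab and RpL23 for distance, RpLP2 and RpL22 for GC content, RpS6, RpL11, RpL26, RpL35A and RpS3A, and the pair RpL24 and RpL27 for sequence), the splits by distance, strength and initiator, and the counts of genes alone at their summit were chosen after the values were seen. Alternatives covered the window, the TSS used, the peaks used, the GC windows and each replicate left out.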

Additional observations from a re-analysis of the deposited data

How the results depend on the processing

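The number of members with an IDR promoter summit was 66 and ranged from 55 (peaks matched in all 3 replicates) to 67 (within 1000 bp) over 10 alternatives, each within 1.5 times of it. The median rank percentile stayed between 26.5 and 30.4, and the median position between -26.5 and -5.5 bp, the former from the distance to the canonical TSS, an alternative chosen after seeing the data. The upstream share fell to 53.0% with the 5′-most TSS alone. The GC difference was 0.635 points within 1000 bp, 2.12 for peaks matched in all 3 replicates, 1.80 where the nearest TSS is the member's, and 1.93 with GC taken within 25 bp. It reversed to -2.86 with flanks 500 bp away, where mean flank GC was 45.1% in place of 41.0%. The share of members in the replicates was 59.8% with lists of the strongest peaks cut to 4729, which holds fewer peaks by construction. With all peaks of each replicate it was 81.9%, against 37.9% for other protein-coding genes. For the cut to 4729 and for the counts of 55 and 67 members, the share over all genes is not given here. The excess of members under those settings is therefore not shown.

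Leaving out each replicate moved the mean replicate share between 73.9% and 79.3%. For results from the IDR list it changed nothing (66 members, 29.6 for the rank percentile, -15.5 bp, 65.2% upstream and 1.26 points), but this is a weak check: a peak had only to be matched in 1 of the other 2 replicates, and the list itself was made by the authors from all 3. No paired analysis was possible because there was 1 group of samples, so no sample has a partner in another group; sets of genes were compared within each replicate instead. Depth is unknown, so absence from a list that stops at 30000 peaks is not absence of binding.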
